A study of Mus musculus with 28 samples.

Results

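The antiviral interferon-stimulated genes described here are 10 named mouse genes, Ifit1, Ifit3, Isg15, Usp18, Oasl2, Oas1a, Rtp4, Ifi44, Bst2 and Mx1, of 43629 genes in the count table. They were chosen by name as a family, and all 10 passed the filter on low counts in both RNA fractions. RNA came from the cortex of Glt25d2 BacTRAP mice, in which ribosomes are tagged in the cells where the Glt25d2 driver is active, taken by the submitters as layer 5 motoneurons. The immunoprecipitate (IP) is RNA pulled down with those ribosomes, and the input is RNA of the whole cortex before the pulldown. Acute mice had experimental autoimmune encephalomyelitis (EAE), an autoimmune inflammation of the central nervous system induced with MOG35-55, a peptide of a myelin protein, and were sampled 15 days after immunisation. Chronic mice had the same disease and were sampled 30 days after immunisation. Healthy mice were the control, and all groups carried the Glt25d2 BacTRAP genotype. Each fraction has 5 acute, 4 chronic and 5 healthy libraries, 28 in all. The age, sex and strain of the mice are not given in the sources used here, nor is it stated whether each library came from a separate mouse, so each p-value reflects variation among these libraries only.

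Interferon-stimulated genes are switched on when interferons bind their receptors and receptor-bound kinases such as Jak1 and Tyk2 activate STAT proteins. Together with Irf9 these bind the interferon-stimulated response element (ISRE) in promoters. The proteins made then block steps of viral replication, and some of them, such as Usp18, turn the response down again. In the brain, microglia, astrocytes, endothelial cells and neurons can all mount this response.

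The promoters are shown because the ISRE is the sequence through which interferon is known to act on this family. RefSeq windows of GRCm38.p6, from 250 bases before to 50 after the gene start, were found for 7 of the 10 genes. Usp18, Rtp4 and Mx1 were not among the windows used here. The ISRE core, read as GAAA, then any 2 bases, then GAAA, and searched on both strands with overlapping matches allowed, was present in 5 of the 7 windows, against 3.44% of all 32851 windows of that length. The letters were not found in the windows of Oasl2 and Ifi44. The 5 windows are printed from 5′ to 3′ on the strand of the gene, with every base of an ISRE core match in capitals (a match on the opposite strand reads TTTC, any 2 bases, TTTC).
Ifit1 promoter, chr19:34640639-34640938, plus strand: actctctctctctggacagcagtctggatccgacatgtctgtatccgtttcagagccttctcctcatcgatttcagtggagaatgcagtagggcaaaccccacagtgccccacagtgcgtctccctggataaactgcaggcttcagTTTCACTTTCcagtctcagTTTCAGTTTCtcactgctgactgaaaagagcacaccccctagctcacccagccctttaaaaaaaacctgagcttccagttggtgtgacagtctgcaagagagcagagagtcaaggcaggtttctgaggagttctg
Ifit3 promoter, chr19:34583279-34583578, plus strand: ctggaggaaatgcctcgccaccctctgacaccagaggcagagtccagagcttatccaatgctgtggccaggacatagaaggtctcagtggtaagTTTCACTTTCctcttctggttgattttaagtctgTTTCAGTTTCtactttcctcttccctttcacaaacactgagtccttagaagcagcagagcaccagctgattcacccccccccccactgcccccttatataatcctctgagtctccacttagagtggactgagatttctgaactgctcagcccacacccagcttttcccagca
Isg15 promoter, chr4:156200769-156201068, minus strand: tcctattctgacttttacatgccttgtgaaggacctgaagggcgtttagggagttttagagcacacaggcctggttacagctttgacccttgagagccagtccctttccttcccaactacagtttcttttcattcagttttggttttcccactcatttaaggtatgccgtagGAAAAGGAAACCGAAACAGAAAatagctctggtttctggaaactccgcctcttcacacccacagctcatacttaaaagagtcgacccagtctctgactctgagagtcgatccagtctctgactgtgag
Oas1a promoter, chr5:120907476-120907775, minus strand: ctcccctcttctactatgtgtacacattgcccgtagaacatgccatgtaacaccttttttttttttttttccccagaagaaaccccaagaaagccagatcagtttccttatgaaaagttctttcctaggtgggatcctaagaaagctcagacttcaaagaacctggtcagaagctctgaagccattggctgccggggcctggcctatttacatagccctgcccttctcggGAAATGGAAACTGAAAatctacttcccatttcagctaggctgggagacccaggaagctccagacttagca
Bst2 promoter, chr8:71537423-71537722, minus strand: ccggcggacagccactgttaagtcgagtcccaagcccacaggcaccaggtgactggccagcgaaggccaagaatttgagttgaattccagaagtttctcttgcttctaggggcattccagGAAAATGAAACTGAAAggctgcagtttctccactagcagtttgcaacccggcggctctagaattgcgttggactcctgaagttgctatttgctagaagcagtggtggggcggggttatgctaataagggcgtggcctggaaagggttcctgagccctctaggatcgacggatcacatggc
Ifit1 and Ifit3 each held 2 separate matches on the opposite strand. Isg15 held 3 overlapping matches, and Oas1a and Bst2 held 2 overlapping matches each. The first base of the match nearest the start lay 14 bases before it in Oas1a, 66 in Isg15, 85 in Ifit1, 122 in Ifit3 and 124 in Bst2. A second motif, TTCNNNGAA, the core bound by Stat dimers, was present in 2 of the 7 windows (Oas1a and Bst2), against 8.3% of all windows.

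The input libraries held 17848273 to 27915940 counts and the IP libraries 6198088 to 21229550. Summed over 10 markers of layer 5 projection neurons, IP levels were 1660 to 2530 CPM (counts scaled to a common library size) in acute, 1270 to 1930 in chronic and 1350 to 1700 in healthy libraries, each range above that of input (782 to 840, 721 to 800 and 743 to 796). Markers of other cells were also counted in IP: 10 astrocyte markers summed to between 1630 and 5450 CPM in IP and between 2330 and 3910 in input. Summed over 10 endothelial markers, healthy IP (71.5 to 129 CPM) lay above healthy input (25.5 to 36.3), as it did for the layer 5 markers. Their acute IP range (18.2 to 73.6) overlapped that of acute input (28.9 to 37.6). The chronic ranges overlapped too (40.5 to 88.6 in IP, 29.5 to 44.5 in input). The common biological coefficient of variation was 1.06 over the IP libraries and 0.101 over the input libraries. In IP, 9 of the 10 genes had counts in some libraries and none in others.

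In whole cortex all 10 genes were higher in acute EAE than in healthy mice, by 2.92 to 4.67 on the log2 scale. By edgeR's quasi-likelihood test with Benjamini-Hochberg adjustment over 16381 genes, 10 of 10 passed an adjusted p of 0.05, where 11.1% of all genes tested were called higher. Their median log2 change was 4.19, against -0.01 over all genes. The lowest acute library lay above the highest healthy library for 10 of the 10 genes, which held for 9.01% of all genes.

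Ifit1 and Ifit3 encode tetratricopeptide repeat proteins that bind viral RNA. Ifit1 (chromosome 19, 34640871 to 34650009, plus strand, GRCm38) stood at 26.3, 15.2, 32.2, 16.1 and 12.3 CPM in acute input, 3.54, 6.44, 3.6 and 11 CPM in chronic input and 1.32, 3.53, 1.94, 1.53 and 2.13 CPM in healthy input. Acute libraries were all above the other groups, and the lowest chronic value was close to the highest healthy one. Its log2 change in acute against healthy input was 3.29 ± 0.42 (SE, edgeR adjusted p = 0.000173). Ifit3 (chromosome 19, 34583531 to 34588731, plus strand) stood at 64.2, 41.1, 86.0, 50.0 and 43.9 CPM in acute input, 13.9, 17.0, 14.6 and 25.4 CPM in chronic input and 6.43, 10.3, 6.91, 7.33 and 6.77 CPM in healthy input. The 3 groups of input libraries did not overlap. Ifit3 had the smallest acute change of the 10 genes, 2.92 ± 0.25 (SE, edgeR adjusted p = 8e-06). Of the 75-base windows of Ifit3 transcripts, 41.1% also occur in its copy Ifit3b, so the split of reads between those genes is uncertain. Ifit3b averaged 23.4 ± 5.72 CPM in acute, 9.13 ± 2.48 CPM in chronic and 4.26 ± 1.18 CPM in healthy input (SD, n = 5, 4 and 5).

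**Figure D1:**
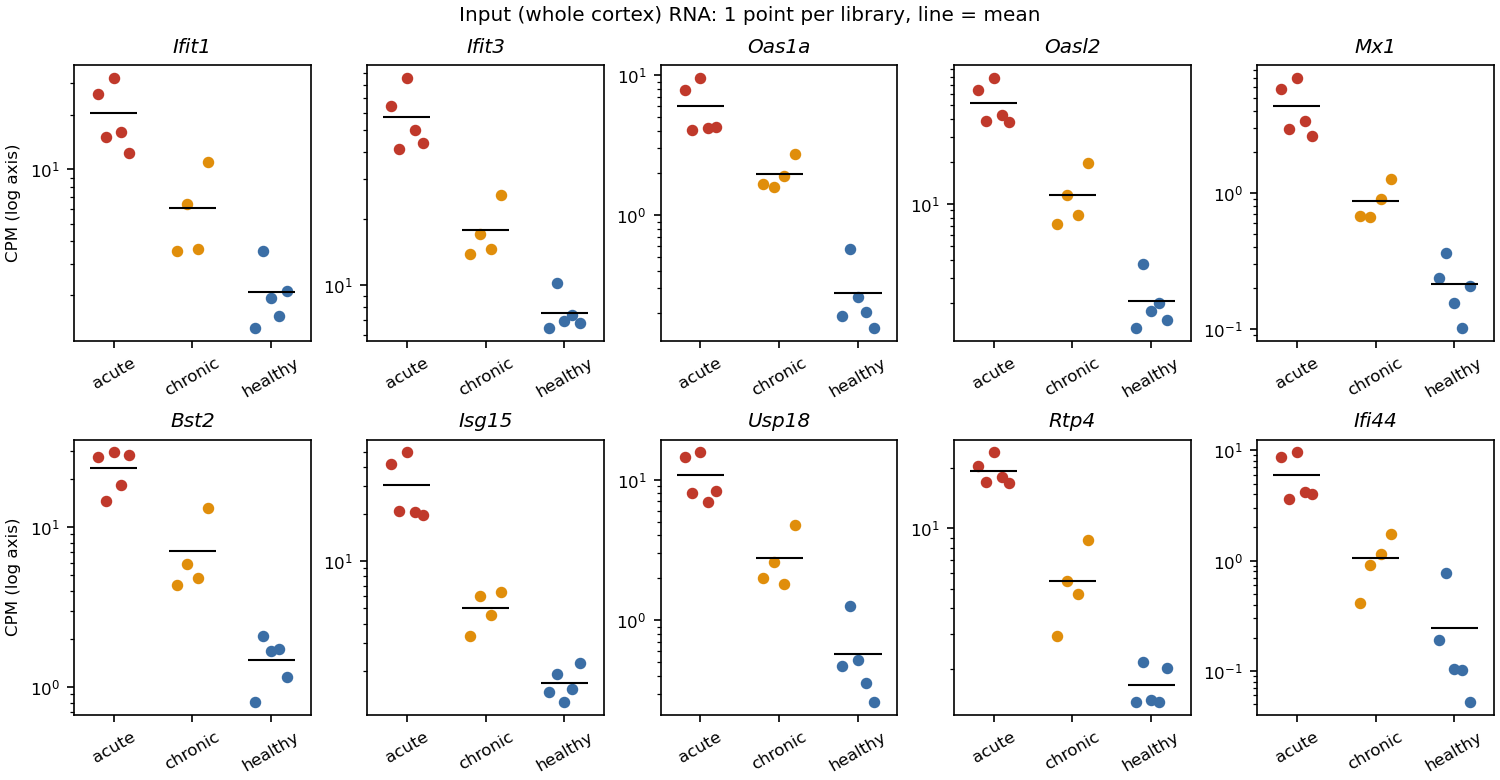
Level of each of the 10 genes in CPM (log axis, scaled per gene) in the input libraries, with 1 point per library and a line at the group mean, for 5 acute, 4 chronic and 5 healthy libraries. Every acute point lies above every chronic and healthy point, and Ifi44 is the gene in which chronic and healthy points overlap.

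Oas1a and Oasl2 belong to the oligoadenylate synthetases, whose product activates the RNA-cutting enzyme RNase L, and to their relatives. Oasl2 (chromosome 5, 114896936 to 114912234, plus strand) stood at 64.0, 38.9, 78.6, 42.9 and 37.9 CPM in acute input, 7.24, 11.6, 8.34 and 19.4 CPM in chronic input and 1.32, 3.74, 1.73, 1.99 and 1.51 CPM in healthy input. Its groups did not overlap, and at 4.67 ± 0.39 (SE, edgeR adjusted p = 7.19e-06) its acute log2 change was the largest of the 10. Oas1a (chromosome 5, 120896256 to 120907521, minus strand) stood at 7.92, 4.08, 9.61, 4.23 and 4.26 CPM in acute input, 1.67, 1.58, 1.90 and 2.74 CPM in chronic input and 0.189, 0.572, 0.262, 0.204 and 0.156 CPM in healthy input. It had only 27 counts in all 5 healthy input libraries together, so the healthy level is imprecise. Its acute log2 change was 4.42 ± 0.36 (SE, edgeR adjusted p = 2.85e-07). Oas1g shares 47.6% of the 75-base windows of Oas1a. Oas1g had 159 counts in the acute and 3 in the healthy input libraries and was called higher (edgeR adjusted p = 6.49e-06).

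Mx1 is a GTPase of the nucleus in mouse that blocks the replication of influenza viruses, and Bst2 (tetherin) holds budding virus particles at the cell surface. Mx1 (chromosome 16, 97447035 to 97462907, minus strand) stood at 5.84, 2.97, 7.04, 3.36 and 2.61 CPM in acute input, 0.677, 0.672, 0.899 and 1.27 CPM in chronic input and 0.236, 0.364, 0.157, 0.102 and 0.208 CPM in healthy input. Its acute log2 change was 4.31 ± 0.37 (SE, edgeR adjusted p = 2.08e-07). Bst2 (chromosome 8, 71534264 to 71537437, minus strand) stood at 27.2, 14.5, 29.4, 18.2 and 28 CPM in acute input, 4.32, 5.86, 4.79 and 13.2 CPM in chronic input and 0.804, 2.08, 1.67, 1.73 and 1.15 CPM in healthy input. Both genes kept the 3 groups apart, and the chronic range of Bst2 reached close to its acute range. The acute log2 change of Bst2 was 3.98 ± 0.39 (SE, edgeR adjusted p = 1.67e-05).

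Isg15 is a ubiquitin-like protein that is joined to other proteins, and Usp18 is the protease that removes it and also restrains signalling at the interferon receptor. Isg15 (chromosome 4, 156199424 to 156200818, minus strand) stood at 41.6, 21.0, 49.7, 20.6 and 19.8 CPM in acute input, 3.33, 5.96, 4.54 and 6.32 CPM in chronic input and 1.47, 1.92, 1.26, 1.53 and 2.24 CPM in healthy input. Its acute log2 change was 4.18 ± 0.35 (SE, edgeR adjusted p = 5.25e-06). Usp18 (chromosome 6, 121245906 to 121270916, plus strand) stood at 14.5, 7.99, 15.7, 6.93 and 8.33 CPM in acute input, 1.98, 2.59, 1.80 and 4.75 CPM in chronic input and 0.473, 1.25, 0.523, 0.356 and 0.260 CPM in healthy input. Both genes kept the groups apart, and healthy replicate 2 stood above the other healthy libraries for Usp18. The acute log2 change of Usp18 was 4.21 ± 0.41 (SE, edgeR adjusted p = 9.11e-06).

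Rtp4 encodes a receptor transporter protein with antiviral activity, and Ifi44 an interferon-induced cytoplasmic protein. Rtp4 (chromosome 16, 23609919 to 23614222, plus strand) stood at 20.4, 16.9, 23.9, 17.9 and 16.7 CPM in acute input, 2.92, 5.47, 4.74 and 8.72 CPM in chronic input and 1.37, 2.18, 1.41, 1.37 and 2.03 CPM in healthy input. Its acute log2 change was 3.52 ± 0.24 (SE, edgeR adjusted p = 1.99e-07). Ifi44 (chromosome 3, 151730922 to 151749947, minus strand) stood at 8.66, 3.61, 9.66, 4.19 and 4.02 CPM in acute input, 0.417, 0.912, 1.15 and 1.76 CPM in chronic input and 0.189, 0.780, 0.105, 0.102 and 0.052 CPM in healthy input. Healthy replicate 2 lay above chronic replicate 1 for Ifi44, the single overlap between chronic and healthy input among the 10 genes. The acute log2 change of Ifi44 was 4.58 ± 0.55 (SE, edgeR adjusted p = 5.14e-05).

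In chronic EAE the 10 genes stood between the other phases. Against healthy input, 7 of 10 were called higher, where 2.33% of all genes were, and their median log2 change was 2.06, against 0.00 over all genes. The 7 were Oas1a (2.82 ± 0.42, SE), Oasl2 (2.51 ± 0.43), Usp18 (2.28 ± 0.47), Bst2 (2.26 ± 0.42), Mx1 (2.02 ± 0.46), Rtp4 (1.72 ± 0.27) and Ifit3 (1.24 ± 0.27), with edgeR adjusted p-values of 0.00142 for Oas1a to 0.0325 for Ifit3. Isg15 (1.59 ± 0.41, adjusted p = 0.0634), Ifit1 (1.57 ± 0.46, 0.117) and Ifi44 (2.10 ± 0.69, 0.147) did not pass edgeR's quasi-likelihood test. Chronic and healthy libraries did not overlap for 9 of the 10 genes, which held for 3.84% of all genes. Without chronic replicate 4, or without healthy replicate 4, 4 genes were called.

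Against acute input, 10 of 10 genes were lower in chronic input and did not overlap with it. Of all genes, 4.74% were called lower and 6.58% were lower without overlap. The median log2 change of the 10 was -1.86, against 0.01 over all genes. Isg15 fell by 2.59 ± 0.33 on the log2 scale (SE, edgeR adjusted p = 0.00119), the largest fall, and Oas1a fell by 1.59 ± 0.29 (adjusted p = 0.00367), the smallest. In each fraction the comparisons of acute and chronic with healthy share the healthy libraries.

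**Figure D2:**
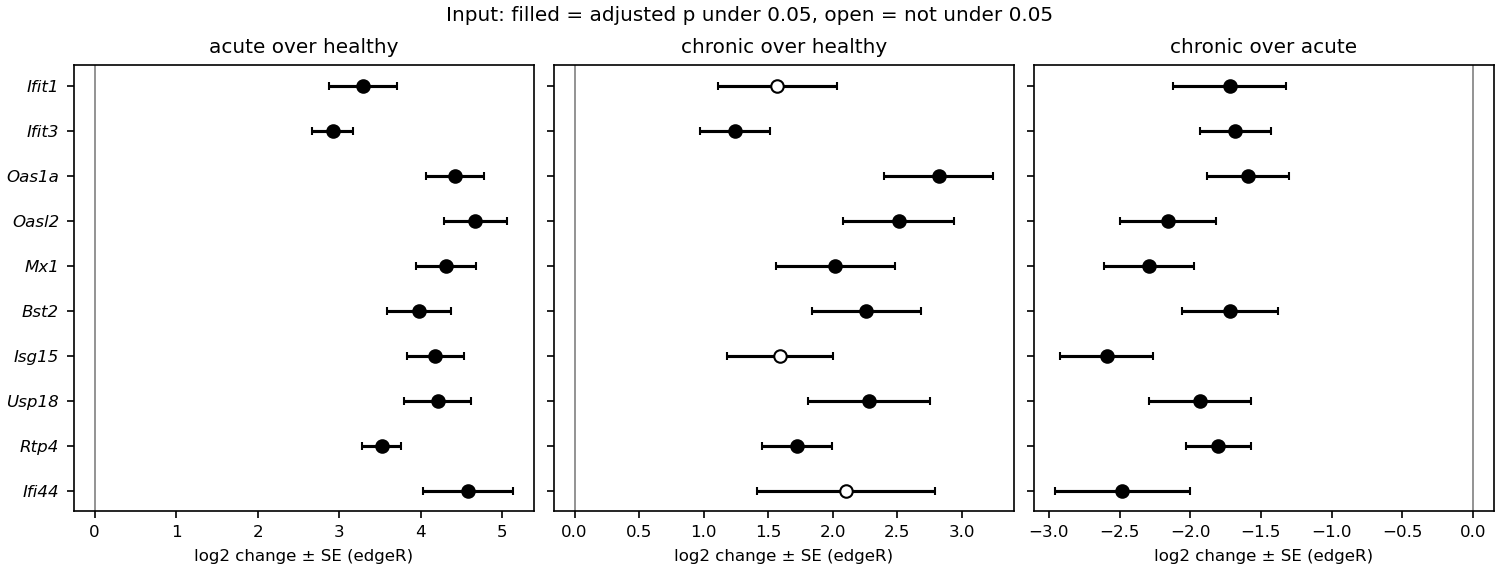
edgeR log2 change (horizontal axis) ± standard error of each of the 10 genes in input, for acute over healthy, chronic over healthy and chronic over acute. Filled points passed an adjusted p of 0.05. All 10 are filled in the first and last panels, and Ifit1, Isg15 and Ifi44 are open in the middle one.

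The order of the genes by level, in CPM per kilobase of summed exon length, was led by the same 3 genes in each phase of input. In acute input Isg15 (40.4 ± 18.6, SD, n = 5), Ifit3 (32.7 ± 10.6) and Bst2 (30.7 ± 8.76) stood highest and overlapped one another. They were followed by Oasl2 (13.5), Rtp4 (12.2), Ifit1 (7.69), Usp18 (6.04), Oas1a (3.19), Mx1 (1.20) and Ifi44 (0.986), and of these neighbours only Oas1a and Mx1 had ranges that did not overlap. In chronic input Ifit3 (10.2 ± 3.03, SD, n = 4) came first, then Bst2 (9.23 ± 5.46) and Isg15 (6.66 ± 1.81), again overlapping. In healthy input Ifit3 (4.32 ± 0.899, SD, n = 5) lay above Isg15 (2.22 ± 0.521) without overlap, and Bst2 (1.95 ± 0.664) followed. In IP the order differed: acute IP was led by Ifit3, Isg15 and Bst2, chronic IP by Ifit3, Ifit1 and Bst2, and healthy IP by Isg15, Ifit3 and Rtp4, with Bst2 at 0, and all neighbours overlapped.

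In each phase of input the highest value of most genes came from 1 library. Acute replicate 3 was the highest acute input library for 10 of 10 genes, chronic replicate 4 the highest chronic input library for 10 of 10, and healthy replicate 2 the highest healthy input library for 9 of 10. In acute IP the highest values were spread over all 5 libraries, with 3, 1, 3, 2 and 1 genes highest in replicates 1 to 5, while in chronic IP replicate 4 was highest for 7 genes. Summed over the 10 genes, acute input reached 281, 166, 342, 184 and 178 CPM, chronic input 40.0, 58.1, 46.3 and 94.6 CPM, and healthy input 13.8, 26.7, 16, 16.2 and 16.5 CPM. The lowest acute sum lay above the highest chronic sum, and the lowest chronic sum above the highest healthy sum. Chronic replicate 4 also had the highest chronic input sum over 12 microglia markers (216 CPM, against 95.4 to 115 in the other 3). Healthy replicate 2 did not stand out in those markers (68.8 CPM, against 60.5 to 91.8 in the other 4). Acute replicate 3 had 165 CPM of them, against 138 to 218 in the other 4.

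Ratios between the genes were compared across the phases of input as a description. The ratio of Isg15 to Oas1a, a pair chosen after its values were seen, was 5.25, 5.15, 5.17, 4.87 and 4.65 in acute input, 2.0, 3.76, 2.39 and 2.30 in chronic input and 7.75, 3.36, 4.80, 7.50 and 14.3 in healthy input. Every chronic ratio lay below every acute one, while the healthy ratios, which rest on few Oas1a counts, spread across both. Of the 45 pairs among the 10 genes, 10 had ratios whose acute and chronic ranges did not overlap, and in the others they overlapped. Pairs that share a gene are not independent, and no share over pairs of all genes stands beside this count. These differences were not tested.

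**Figure D3:**
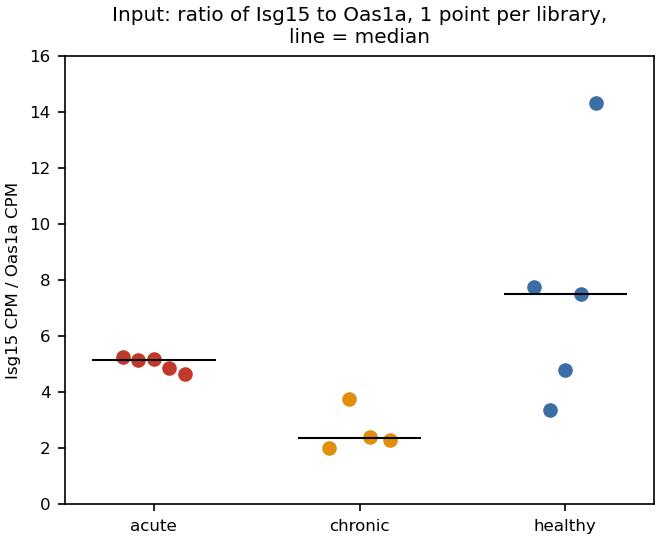
Ratio of Isg15 CPM to Oas1a CPM in each input library (vertical axis, linear), with a line at the median, for 5 acute, 4 chronic and 5 healthy libraries. Acute ratios lie between 4.65 and 5.25, chronic ratios between 2.0 and 3.76 and healthy ratios between 3.36 and 14.3.

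The whole cortex holds many cell types, and in such bulk RNA fewer cells of a type and less RNA per cell cannot be told apart. Markers of other cells were followed in input, where 11.1% of all genes were called higher in acute and 2.33% in chronic against healthy libraries. Of 12 microglia markers 8 were called higher and 1 lower in acute against healthy input, and their summed level was 138 to 218 CPM in acute, 95.4 to 216 CPM in chronic and 60.5 to 91.8 CPM in healthy input. Of 14 infiltrating leukocyte markers 8 could be tested and 7 were called higher in acute input. Their summed level was 18.4 to 29.5 CPM in acute, 13.4 to 34.9 CPM in chronic and 7.95 to 19.5 CPM in healthy input, and these ranges overlapped. Astrocyte markers summed to 3080 to 3910 CPM in acute, 2940 to 3810 CPM in chronic and 2330 to 2700 CPM in healthy input, with 4 of 10 called higher in acute input. Markers of endothelial cells, which line the vessels, summed to 28.9 to 37.6 CPM in acute, 29.5 to 44.5 CPM in chronic and 25.5 to 36.3 CPM in healthy input. These ranges overlapped, and 1 of 10 was called higher in each phase against healthy. No leukocyte marker was at 0 in all acute libraries, 1 was at 0 in all chronic ones, and 4 in all healthy ones. The part of these cells in the change of the 10 genes was not tested.

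In the ribosome pulldown the fitted log2 change in acute against healthy mice was positive for 9 of the 10 genes, and 1, Ifit3, passed the test. Ifit3 stood at 102, 42.5, 37.1, 63.5 and 60.0 CPM in acute IP, 6.83, 50.9, 48.9 and 31.5 CPM in chronic IP and 5.39, 11.5, 6.15, 4.63 and 5.48 CPM in healthy IP. Acute and healthy libraries did not overlap, and chronic replicate 1 lay within the healthy range. Its log2 change in acute against healthy IP was 3.19 ± 0.50 (SE, edgeR adjusted p = 0.0169), where 0.0575% of 13914 genes were called higher. The call was lost without acute replicate 5, healthy replicate 1 or healthy replicate 3 (adjusted p = 0.0582, 0.0783 and 0.102), at log2 changes of 3.14 to 3.23, and when the 4 IP libraries that detected fewest genes were left out. Of the positive fitted changes 4 (Bst2, Mx1, Usp18 and Ifi44) rest on a healthy IP group with no counts and could only come out higher. At an unadjusted p under 0.05 by edgeR's quasi-likelihood test stood these 4 and Ifit3, Oasl2 and Ifit1, against 6.26% of all genes.

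Acute and healthy IP did not overlap for 4 of the 10 genes, Ifit1, Ifit3, Oasl2 and Bst2, against 1.33% of all genes. Bst2 had no counts in healthy IP and passed the filter through its acute and chronic libraries. It could only come out higher, so its place in this count is no support. Bst2 stood at 10.2, 4.77, 12.2, 7.65 and 7.20 CPM in acute IP, 0, 7.31, 0 and 10.1 CPM in chronic IP and 0 in every healthy IP library. With 3 counts over the healthy group taken as the floor, its acute level was at least 196-fold higher, and the test of that difference had an adjusted p of 0.239 by edgeR's quasi-likelihood test. Oasl2 stood at 24.2, 29.7, 12.9, 36.0 and 41.5 CPM in acute IP, 1.53, 6.48, 0 and 33.7 CPM in chronic IP and 4.36, 8.94, 4.01, 2.31 and 0 CPM in healthy IP. Ifit1 stood at 18.9, 11, 35.9, 20.6 and 21.4 CPM in acute IP, 8.57, 43.0, 0 and 10.2 CPM in chronic IP and 4.02, 5.32, 0, 2.11 and 5.87 CPM in healthy IP. For both genes the acute libraries were all above the healthy ones and the chronic libraries spanned both groups.

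Usp18, Ifi44 and Mx1 were, like Bst2, at 0 in all 5 healthy IP libraries, so these 4 genes passed the filter on low counts in IP through their acute and chronic libraries. Usp18, Ifi44 and Mx1 each had counts in 3 of 5 acute IP libraries. Of the 196 Usp18 counts in acute IP 148 were in replicate 4, and of the 178 Mx1 counts 97 were in replicate 3. Against that floor, Usp18 was 73.4-fold higher in acute IP (24.8-fold without replicate 4). Mx1 was 66.6-fold higher (33.4-fold without replicate 3) and Ifi44 90.9-fold (66.3-fold without replicate 2). These folds leave out the spread among IP libraries and are no lower bounds on the change. The lower limits of edgeR's confidence intervals were log2 changes of 1.99 for Usp18, 2.35 for Mx1 and 1.94 for Ifi44. Of these 3 genes none passed the test (adjusted p = 0.492 to 0.527, edgeR's quasi-likelihood test). Isg15 stood at 32.2, 8.85, 7.84, 21.6 and 11.1 CPM in acute IP, 3.34, 0, 0 and 5.16 CPM in chronic IP and 2.98, 0, 0.621, 1.77 and 9.62 CPM in healthy IP. Its acute range lay above its chronic range, and healthy replicate 5 reached into the acute range. Rtp4 ranged over 0 to 36.1 CPM in acute IP, 0 to 1.47 CPM in chronic IP and 0 to 5.36 CPM in healthy IP. Oas1a was the exception to the direction, with a log2 change of -0.12 ± 2.47 (SE) in acute IP: 1 healthy library, replicate 1, held 10.6 CPM and the other 4 held 0.

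**Figure D4:**
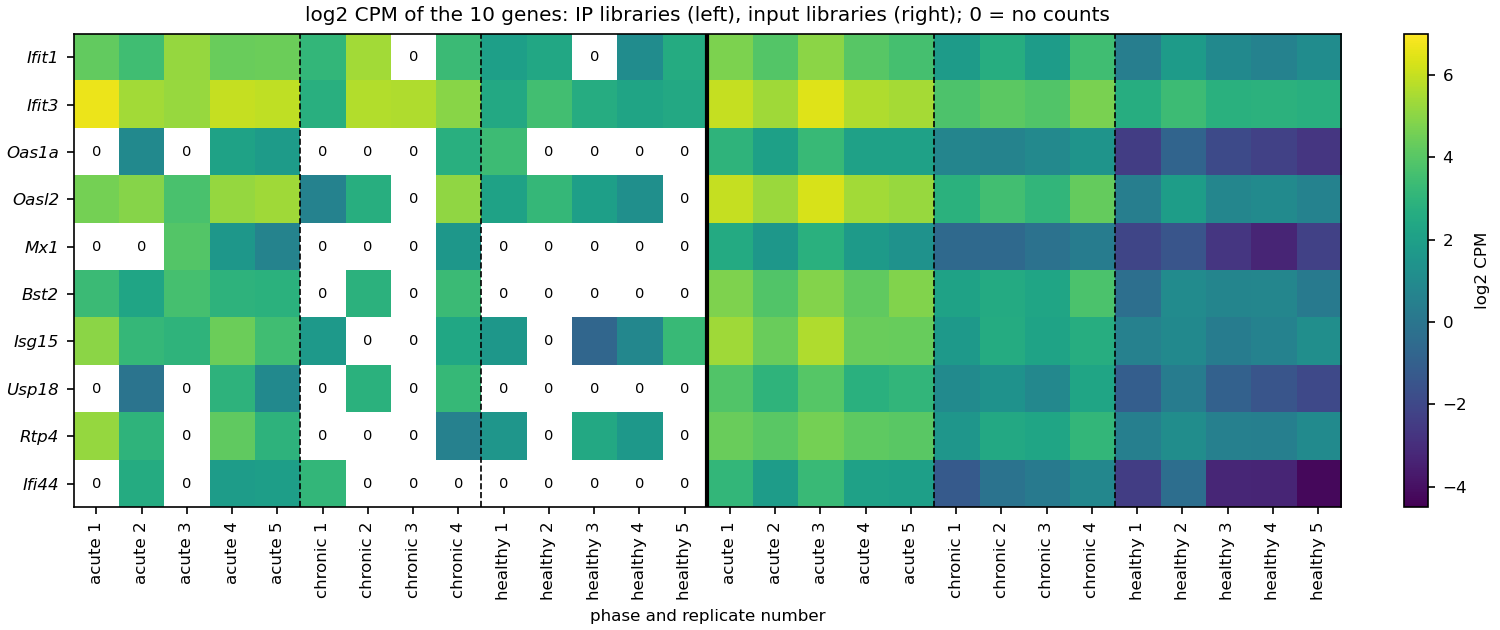
Heat map of log2 CPM (colour scale) for the 10 genes (rows) in all 28 libraries (columns), IP on the left and input on the right, with the phases in the order acute, chronic, healthy. White cells marked 0 had no counts. They occur in IP libraries and in no input library, and Ifit3 has counts in all 14 IP libraries.

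In chronic IP 0 of 10 genes were called against healthy IP by edgeR's quasi-likelihood test, where 0.18% of all genes were called higher. At an unadjusted p under 0.05 there were 5 of the 10 and 10.7% of all genes, and 4 of the 5 (Bst2, Usp18, Ifi44 and Mx1) rest on a healthy IP group at 0. Ifit3 came nearest, at 2.37 ± 0.50 (SE, adjusted p = 0.0546). For 0 of the 10 genes did chronic and healthy IP not overlap, against 2.87% of all genes. By 4 alternative fits 1 to 5 of the 10 genes were called. Over all genes these fits also called more than the 26 of the main fit. Fitting all 28 libraries together called 5 of the 10 and 2550 of 16580 genes. DESeq2's Wald test called 3 of the 10 and 296 of 13914 genes. DESeq2's size factors called 1 and 54 of 13914, and no filter 1 and 30 of 19511. Chronic replicate 4 had counts for 9 of the 10 genes and the other chronic IP libraries for 5, 5 and 1. That library also had the highest IP sum over the microglia markers (234 CPM, against 53.6 to 63.5 in the other 3). Between chronic and acute IP 0 genes were called, of the 10 and of all 13914 (0.0%). Of the 10, 1 had an unadjusted p under 0.05, as had 8.23% of all genes, and Isg15 was the gene whose groups did not overlap, against 1.77% of all genes.

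Summed over the 10 genes, acute IP reached 224, 114, 121, 187 and 160 CPM, chronic IP 29.0, 115, 48.9 and 111 CPM and healthy IP 30.2, 25.8, 16.1, 14 and 21.0 CPM. The acute sums were all above the healthy ones, while chronic replicate 1 lay within the healthy range. In the IP libraries microglia markers summed to 7.52 to 99.1 CPM in acute, 53.6 to 234 CPM in chronic and 20.8 to 62.1 CPM in healthy libraries. Acute replicate 1, with the highest acute IP sum of the 10 genes, had the lowest microglia sum of all IP libraries, 7.52 CPM. That library was among the 4 IP libraries that detected fewest genes, and 4 of the 10 genes were at 0 in it. Leukocyte markers summed to 0 to 11.8 CPM in acute, 0 to 12.6 CPM in chronic and 0 to 17.6 CPM in healthy IP, with 2, 12 and 11 of the 14 markers at 0 in every library of the acute, chronic and healthy groups. Astrocyte markers summed to 2290 to 4290 CPM in acute, 2880 to 5450 CPM in chronic and 1630 to 2360 CPM in healthy IP. Of these 10 markers Gfap alone was called in acute against healthy IP (2.81 ± 0.44, SE, edgeR adjusted p = 0.0282), and S100b alone had a negative fitted change (-0.33 ± 0.29). Aldoc alone was called in chronic against healthy IP (1.10 ± 0.19, edgeR adjusted p = 0.011). There S100b (-0.84 ± 0.32) and Sox9 (-0.38 ± 1.33) had negative fitted changes. Of all genes, 0.0575% and 0.18% were called higher in these comparisons. Endothelial markers summed to 18.2 to 73.6 CPM in acute, 40.5 to 88.6 CPM in chronic and 71.5 to 129 CPM in healthy IP, and 0 of 10 were called, or had an unadjusted p under 0.05, in acute or chronic against healthy IP by edgeR's quasi-likelihood test. Their part in the IP levels of the 10 genes was not tested.

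The pulldown was set against the input of the same phase in a fit of all 28 libraries over 16580 genes. The common coefficient of variation of that fit (0.71) lay between those of input (0.101) and IP (1.06). It thus understates the spread of IP, and p-values that rest on IP can be too small. In acute mice 0 of 10 genes were called by edgeR's quasi-likelihood test, against 18.7% of all genes, with 0 at an unadjusted p under 0.05 (28.8% of all genes). Their median log2 difference, IP over input, was -0.88 (all genes -0.36). In chronic mice 0 of 10 were called, against 28.7% of all genes, with 2 at an unadjusted p under 0.05 (35.4% of all genes) and a median of -0.17 (all genes -0.32). In healthy mice 2 of 10 were called lower in IP, against 14.4% of all genes: Bst2 (adjusted p = 0.000516) and Usp18 (adjusted p = 0.0135). Bst2 had 0 counts in healthy IP and 145 in healthy input, and Usp18 had 0 in IP and 56 in input. Against the floor of 3 counts, IP was 38.2-fold lower for Bst2 and 14.8-fold lower for Usp18. That floor covers counting error only. The limits of edgeR's confidence intervals nearest to no difference were -4.58 for Bst2 and -2.51 for Usp18 on the log2 scale.

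Whether the change from healthy differed between the fractions was tested directly, in the same fit of all 28 libraries. Its common coefficient of variation (0.71) was below that of IP alone (1.06), so its SEs, intervals and p-values can be too small. For Bst2 the SE of the acute difference (1.76) was below that of the acute change in the IP fit (2.53). For the acute change 0 of 10 genes passed edgeR's quasi-likelihood test, where 0.00603% of all genes did, and for the chronic change 0 of 10, where 1.03% of all genes did. At an unadjusted p under 0.05 there were 2 of the 10 and 11.5% of all genes for the acute change, and 5 of the 10 and 16.5% of all genes for the chronic change. The acute 2, Bst2 and Mx1, rest on a healthy IP group at 0. So do 4 of the chronic 5 (Bst2, Usp18, Ifi44 and Mx1), and Ifi44 and Mx1 each had counts in 1 chronic IP library. The remaining gene, Rtp4, went the other way (-4.25 ± 1.87, SE). These counts are therefore no evidence of a larger change in IP. Bst2 came nearest in both, with a difference of 6.25 ± 1.76 (SE, adjusted p = 0.0892) for acute and 7.04 ± 1.85 (adjusted p = 0.0557) for chronic mice. These fitted values rest on a healthy IP group at 0 and are no bounds. Ifit3, with counts in every library, had a difference of 0.29 on the log2 scale in acute mice, with a 95% interval of -0.80 to 1.38. In chronic mice its difference was 1.15, with an interval of -0.01 to 2.31 (edgeR adjusted p = 0.313).

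The rest of the pathway was followed in input through lists of ligands, receptors, signalling factors, sensors and effectors. Of all genes, 11.1% were called higher in acute and 2.33% in chronic input against healthy, and the counts of each list stand beside these shares. Transcripts of the interferons themselves had few or no counts: none of 10 ligand genes had enough counts to be tested. Ifng had 11 counts in the 5 acute input libraries and 5 in the 5 acute IP libraries, and 0 in the others. Ifnb1 and the 4 Ifna genes listed had 0 in all 28. Of 7 receptors and kinases 1 was called higher in acute input (Jak2, 0.20 ± 0.07, SE, edgeR adjusted p = 0.0443) and 0 in chronic input, where 1 had an unadjusted p under 0.05 (14.1% of all genes). Ifnar1 averaged 24.3 ± 1.99 CPM in acute, 25.9 ± 2.90 CPM in chronic and 26.7 ± 1.87 CPM in healthy input (SD, n = 5, 4 and 5).

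Of 6 signalling factors, 5 rose in acute input and 4 in chronic input. Irf9, which takes part in binding the ISRE, rose by 2.28 ± 0.18 (SE, edgeR adjusted p = 1.26e-06) and Stat2 by 1.20 ± 0.11 (adjusted p = 1.31e-06) on the log2 scale in acute input. In chronic input Irf9 was called (1.15 ± 0.20, adjusted p = 0.00492), and Stat2 stood at 0.33 ± 0.12 (adjusted p = 0.206). Irf9 averaged 30.9 ± 5.57 CPM in acute, 14 ± 3.75 CPM in chronic and 6.34 ± 1.36 CPM in healthy input (SD, n = 5, 4 and 5). Of 5 negative regulators, 3 rose in acute input: Socs3 (1.30 ± 0.19), Socs1 (1.95 ± 0.29) and the phosphatase Ptpn6 (1.12 ± 0.19). In chronic input Ptpn6 alone was called (0.79 ± 0.20, adjusted p = 0.0379).

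The 3 genes of the enzyme cascade that joins ISG15 to proteins all rose in acute input: the activating enzyme Uba7 by 2.98 ± 0.33, the conjugating enzyme Ube2l6 by 1.60 ± 0.19 and the ligase Herc6 by 0.74 ± 0.15 on the log2 scale (SE). In chronic input Uba7 was called, at 1.95 ± 0.36 (edgeR adjusted p = 0.00572). Of 6 genes for RNA sensors and their adaptor 5 rose in acute input, among them Ddx58 (RIG-I, 2.06 ± 0.18), Dhx58 (2.67 ± 0.30) and Ifih1 (MDA5, 1.49 ± 0.19), and 2 in chronic input, Ddx58 (1.03 ± 0.19) and Dhx58 (1.48 ± 0.34). Of 34 other antiviral effectors 32 rose in acute input, with a median of 2.39, and 20 in chronic input, with a median of 1.25. Ifitm3, which blocks virus entry, stood at 3.12 ± 0.19 in acute and 1.78 ± 0.20 in chronic input, and Oas2 at 3.66 ± 0.30 in acute input. Against acute input 29 of the 34 fell in chronic input, where 4.74% of all genes did, with Rsad2 (viperin) at -2.22 ± 0.36. Ifit1bl1, a relative of Ifit1, stood at 0.10 ± 0.15 in acute input (adjusted p = 0.695).

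**Figure D5:**
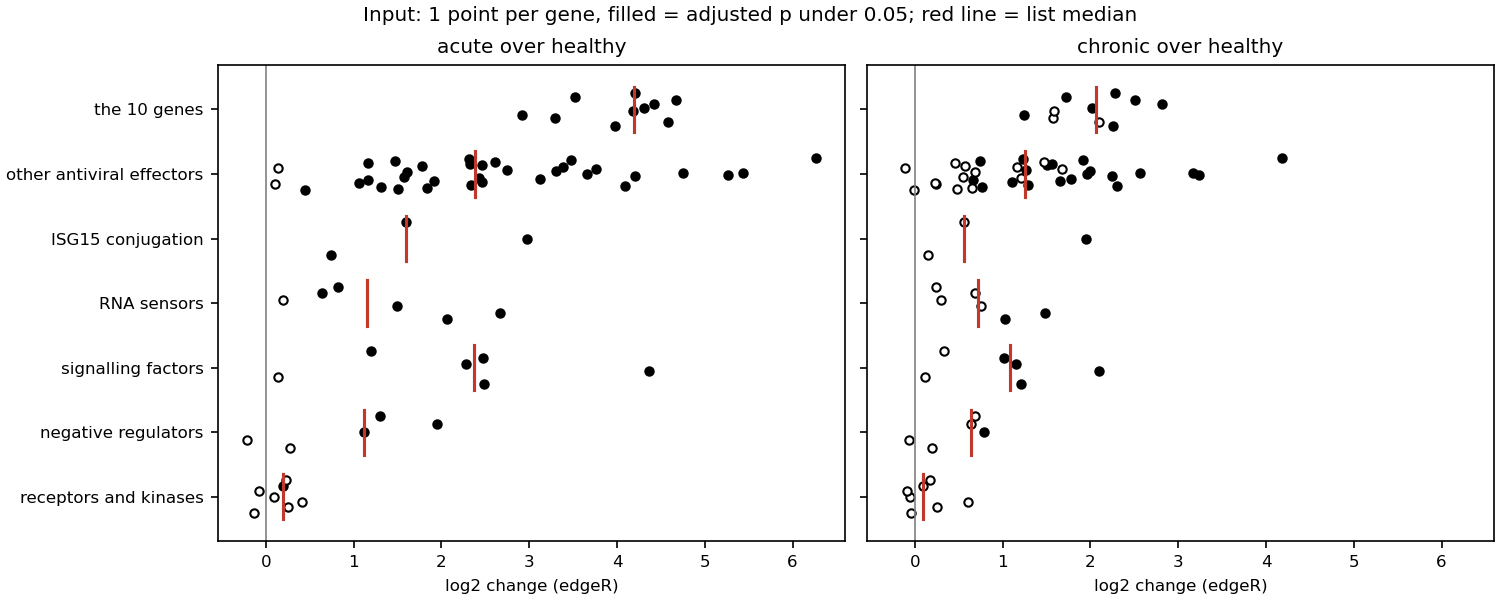
edgeR log2 change in input (horizontal axis) of each gene in the lists by role, for acute over healthy (left) and chronic over healthy (right), with 1 point per gene, filled where the adjusted p was under 0.05, and a red line at the list median. The 10 genes have medians of 4.19 and 2.06, while the receptors and kinases have a median of 0.20 in the acute panel.

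The genes whose levels across the 14 input libraries were most like the mean of the 10 (Pearson's r of log2 CPM with the mean z score, among 13301 genes) were Gbp7 (0.995), Irf7 (0.993), Irgm1 (0.990), Rnf213 (0.988) and Gbp2 (0.988). Across the 14 IP libraries, among 12298 genes, they were H2-Aa (0.858), Gm4951 (0.845), Vav1 (0.839), Iigp1 (0.814) and Trim56 (0.811). These r values include the differences between the phases and are given as a description.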

How the data were processed

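The deposited table holds counts of read pairs per gene, made by the authors with featureCounts 1.5.1 on exons of the Ensembl release 79 annotation of GRCm38, without strand, per the file headers; antisense partners and near-identical copies can therefore share reads. The submitters' processing notes name STAR 2.4 and DESeq2. The header names 36 alignment files, and the 28 columns mapped to a library were used. The kit was for poly A enrichment, per the labels.

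Contrasts were fitted to the counts in R 4.3.3 with edgeR 4.0.16, using its robust quasi-likelihood test, after filterByExpr (minimum count 10, minimum total 15) and TMM scaling, with Benjamini-Hochberg adjustment over all genes tested and a threshold of 0.05. Input and IP libraries were fitted apart for phases (16381 and 13914 genes) and together for fractions (16580 genes). CPM use one TMM scale over 28 libraries; log2 CPM used a prior count of 2. Floors (3 counts over a group) cover counting error only. Scripts were tested on simulated data. The members and lists were chosen with earlier results of these data known. From the other lists, up to 4 genes with the smallest adjusted p per comparison could be named, 2 where none was called, with Ifit3b, Oas1g, Mx2, Oasl1 and Ifit1bl1 as relatives; others named were chosen after their values were seen. Some genes of the lists are not reported here by name. Shared 75-base windows stand for reads of unknown length. No 2 libraries of a group agreed within counting noise. Alternatives were DESeq2 1.42.0 and its size factors, no filter, a fit of all 28 libraries, a replicate block and leaving out libraries.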

Additional observations from a re-analysis of the deposited data

Results flagged for a closer look

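Of 56 sets of values (1 gene in 1 group of 4 or 5 libraries), 13 had a library whose gap to its nearest neighbour took up an unusually large part of the range (Dixon's test at the 95% level). Chance flags about 1 in 20 groups, but this rate does not apply to the 5 of the 13 in which the other libraries of the group were all at 0, since 1 library with counts is then set apart by construction. The values within a library are not independent of each other.

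Healthy input replicate 2 was set apart for 5 of the 10 genes: Ifit3 at 10.3 CPM (6.43 to 7.33 in the other 4), Usp18 at 1.25 (0.260 to 0.523), Oasl2 at 3.74 (1.32 to 1.99), Oas1a at 0.572 (0.156 to 0.262) and Ifi44 at 0.780 (0.052 to 0.189). These rest on 198, 24, 72, 11 and 15 counts. The IP library of the same number, healthy replicate 2, was set apart for Ifit3 at 11.5 CPM (4.63 to 6.15 in the other 4).

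The other values apart were in IP. In acute IP, Usp18 stood at 7.75 CPM in replicate 4 (0 to 1.96 in the other 4) and Mx1 at 15.2 CPM in replicate 3 (0 to 2.99). In chronic IP, Oas1a at 6.85, Rtp4 at 1.47 and Mx1 at 3.0 CPM had counts in replicate 4 alone, and Ifi44 at 8.78 CPM in replicate 1 alone. In healthy IP, Oas1a stood at 10.6 CPM (184 counts) in replicate 1 and at 0 in the other 4.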

How the results depend on the processing

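The acute calls in input held best: 10 of 10 genes were called whichever library was left out, and under DESeq2, its size factors, no filter and a replicate block, but not when all 28 libraries were fitted together. In chronic against healthy input, leaving out 1 library gave 4 to 8 of 10 (7 in full), and in chronic against acute input 9 to 10. Ifit3 was the gene called in acute against healthy IP, and leaving out 1 library gave 0 to 1. The same omissions gave 0 to 1 in chronic against healthy IP (9 to 43 of all genes). In chronic IP against input they gave 0 to 3 (4177 to 5067 of all genes). In healthy IP against input they gave 2 each time (3016 to 3711 of all genes). For the chronic difference between fractions they gave 0 to 1 (43 to 148 of all genes). The cause was not tested. Ifi44 in chronic IP against input turned from 1.05 to -7.52 (log2) without chronic replicate 1, the only chronic IP library with counts for it.

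Fitting all 28 libraries together gives input a wider spread, and IP a narrower one, than their own fits (common coefficient 0.71, against 0.101 and 1.06). It left 2 of 10 called in acute and 0 in chronic input against healthy, and 0 in chronic against acute input. It gave 6 in acute IP, 5 in chronic IP and 1 in chronic against acute IP. Over all genes it called 20 in acute input and 1611, 2550 and 1762 in those IP comparisons. The main fits called 3230, 9, 26 and 0. DESeq2's Wald test called 3 in chronic IP (296 of 13914 genes) and 1 in chronic IP against input (5167 of 16580 genes). It called 2 for the acute difference between fractions (384 of 16580 genes) and 3 for the chronic one (1017 of 16580). It called 0 in acute IP, where it gave none of the 10 an adjusted p, so it did not repeat the main fit's call of Ifit3. It called 123 genes in acute IP in all. DESeq2's size factors gave 1 in chronic IP (54 of 13914 genes), and no filter gave 1 (30 of 19511). When the 4 IP libraries that detected fewest genes, chosen after seeing the data, were left out, 0 were called in acute IP.

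The labels do not say what the replicate numbers mark, and not every pair of the same number had correlated deviations (r over 0.1), so the numbers were not taken to pair the samples. IP and input of the same number were over 0.1 in 9 of 14 pairs (median r 0.123), against 2 of 52 of different numbers (median -0.04), which is a hint from the data, not from the design. Phases of the same number were over 0.1 in 6 of 12 pairs in input and 0 of 12 in IP. With a replicate block, 3 of 10 genes were called in chronic input, 0 in acute IP and 1 in chronic IP against input. Over all genes it called 386, 2 and 4807 in these comparisons, against 449, 9 and 4764 in the main fits. IP zeros limit what can be shown: a gene at 0 in 5 libraries has a level only below its floor.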
